A study of Homo sapiens with 6 samples.

Results

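The 10 genes described here encode enzymes of glycolysis: PFKP, ALDOA, TPI1, GAPDH, PGK1, PGAM1, ENO1, PKM, LDHA and LDHB. They were taken by symbol from the 58735 genes of the expression table, and all 10 were found. RNA-seq covered 6 libraries of HaCaT, a spontaneously immortalised human keratinocyte line. Of these, 3 came from control cells and 3 from cells given ultraviolet B (UVB), with 50 mJ as the dose in the labels. The labels give no area for the dose and do not say whether control dishes were handled as for irradiation. All cells were grown in 60 mm dishes, carried no stated genetic change and, where irradiated, were harvested after 24 h of further culture. HaCaT is 1 line, and the labels do not say whether replicate dishes came from separate cultures. The p-values thus cover only the spread among these dishes, and that spread may be technical.

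Glycolysis splits glucose into pyruvate in the cytosol, with a net gain of ATP and NADH. Phosphofructokinase commits the sugar to the pathway, aldolase cleaves it, and the enzymes from GAPDH to pyruvate kinase harvest the energy. Lactate dehydrogenase then converts pyruvate and lactate into each other and regenerates NAD+. Keratinocytes, like other proliferating cells, are known to form much lactate in culture. Many of these genes are known targets of hypoxia-inducible factor 1 and of MYC. The former binds the letters ACGTG or GCGTG, and the latter binds the E-box CACGTG, which itself holds ACGTG.

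The windows below, each before a start listed by RefSeq, show where these letters lie in genes that were lower, higher or not called after UVB. Both ENO1 windows and the second LDHA window lie wholly in annotated exons of GENCODE 29 (30 of 30 bases). The first LDHA window has 8 of its 30 bases in exons, and those of GAPDH, PFKP and PGK1 have no exon base. Each gene's windows were taken at the first listed start with a match before it, which need not be the main start. That match was the E-box for GAPDH and LDHA and ACGTG or GCGTG for the others. All but the first LDHA window lie wholly inside the annotated gene. GAPDH, for example, is annotated from 6533927, before its window. The sequences are RefSeq's, on build GRCh38.p14, printed 5′ to 3′ on the gene's strand with every match to ACGTG or GCGTG, on either strand, in capitals, and with the full CACGTG where it is present. The windows are chr12:6535142-6535263 (plus strand) for GAPDH, chr11:18394366-18394395 and chr11:18394464-18394493 (plus) for LDHA, chr1:8878836-8878865 and chr1:8878742-8878771 (minus) for ENO1, chr10:3069037-3069066 (plus) for 1 of the starts listed for PFKP, and chrX:78104027-78104106 (plus) for PGK1.
GAPDH: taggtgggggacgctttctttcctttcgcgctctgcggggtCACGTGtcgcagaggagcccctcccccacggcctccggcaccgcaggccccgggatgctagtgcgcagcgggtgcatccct
LDHA, first: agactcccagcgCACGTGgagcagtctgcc
LDHA, second: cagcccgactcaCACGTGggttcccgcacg
ENO1, first: tcacccccctttcCACGCtactgcagccgt
ENO1, second: cggagctgaggggGCGTGccccggaggcgg
PFKP: gccacgagcgcctACGTGatgcccggcccg
PGK1: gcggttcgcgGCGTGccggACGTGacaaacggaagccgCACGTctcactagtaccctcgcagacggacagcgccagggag

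In windows from 250 bases before to 50 bases after a listed start, ACGTG or GCGTG was present on either strand in 9 of the 10 genes, all but PGAM1. These letters were in 13 of the 17 windows listed for the 10 genes and in 48.4% of all 35116 windows. The E-box CACGTG was in 3 of the 17 windows, 1 each of ALDOA, GAPDH and LDHA, and in 7.26% of all windows. The letters were thus present in GAPDH, LDHA and ENO1, which fell, in PFKP, which rose, and in PGK1, which was not called. A match describes the sequence only.

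After UVB, 4 of the 10 enzymes fell (GAPDH, ENO1, LDHA and LDHB), 1 rose (PFKP) and 5 did not pass the test (ALDOA, TPI1, PGK1, PGAM1 and PKM). Calls came from limma on log2(FPKM + 1), where FPKM is reads scaled to gene length and library size, with a Benjamini-Hochberg adjusted p under 0.05 over all 14921 genes whose mean reached 0.5 FPKM. All 10 enzymes passed that filter. Of all genes tested, 27.9% were called, 17.0% higher and 11.0% lower. Among the 605 tested genes at or above the level of the lowest enzyme, 17.0% were higher and 29.1% were lower, so the 4 of 10 that fell stand closer to that share than to the share over all genes. The median log2 fold change was -0.18 for the 10 enzymes, -0.06 for these 605 genes and 0.04 for all genes tested. The 2 groups did not overlap in 6 of the 10, with UVB above in PFKP alone and below in GAPDH, ENO1, PKM, LDHA and LDHB. Over all genes tested 45.8% did not overlap, 27.6% with UVB above and 18.2% with UVB below. The smallest exact permutation p that 3 against 3 libraries allow is 0.1. Gene coordinates are those of GENCODE 29 on GRCh38 and span the whole gene. In bulk RNA, fewer cells of a kind and less RNA per cell cannot be told apart.

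**Figure D1:**
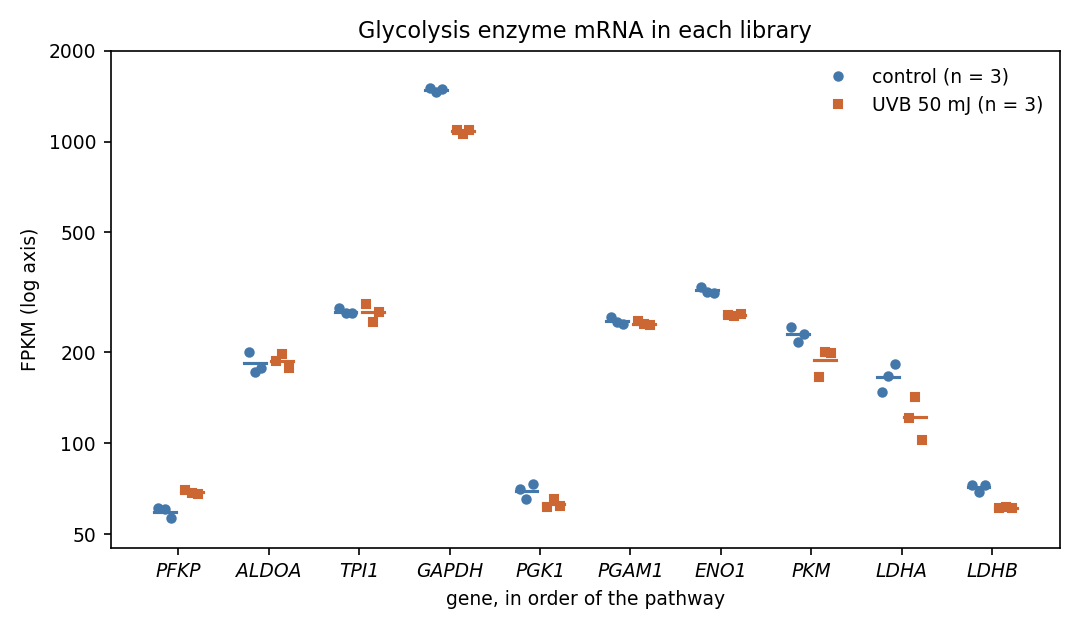
FPKM on a log axis for the 10 enzymes in pathway order, with a point for each control library (circles, n = 3) and each UVB library (squares, n = 3) and a line at each group's mean. The UVB points of GAPDH, ENO1, PKM, LDHA and LDHB lie below every control point, those of PFKP lie above, and those of the other 4 genes overlap.

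PFKP encodes the platelet type of phosphofructokinase, the committed step of the pathway (chromosome 10, 3066333 to 3137712, plus strand, ENSG00000067057). It was measured at 60.8, 60.4 and 56.5 FPKM in the controls and at 70.1, 68.5 and 67.9 FPKM after UVB. Every UVB library lay above every control, and the means were 59.2 ± 2.40 and 68.9 ± 1.10 FPKM (SD, n = 3 each). This gave a log2 fold change of 0.21 ± 0.0434 (SE, limma, Benjamini-Hochberg adjusted p = 0.0139). The call was lost without UVB replicate 1 (0.20, limma adjusted p = 0.0515).

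ALDOA encodes aldolase A, which cleaves fructose 1,6-bisphosphate into triose phosphates (chromosome 16, 30064164 to 30070457, plus strand, ENSG00000149925). Its FPKM values were 201, 172 and 178 in the controls against 188, 197 and 178 after UVB. The highest control exceeded every UVB library, and the groups overlapped. The log2 difference was small against its error, 0.03 ± 0.0706 (SE, limma adjusted p = 0.792), and it was below 0 without control replicate 2 (-0.02) or without UVB replicate 2 (-0.01). ALDOA shares 42.3% of its exon bases with AC093512.2, a same-strand gene listed at a mean of 37.2 FPKM, so its level is uncertain.

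TPI1 encodes triosephosphate isomerase, which interconverts the triose phosphates (chromosome 12, 6867119 to 6870948, plus strand, ENSG00000111669). It stood at 279.9, 269 and 269.6 FPKM in the controls and at 289, 252 and 273 FPKM after UVB. The UVB libraries held both the highest and the lowest of the 6 values. The log2 difference came to -0.01 ± 0.0566 (SE, limma adjusted p = 0.926) and changed sign without control replicate 1 (0.01) or UVB replicate 2 (0.04).

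GAPDH encodes glyceraldehyde-3-phosphate dehydrogenase, which makes the NADH of the pathway and is widely used as an expression reference (chromosome 12, 6533927 to 6538374, plus strand, ENSG00000111640). It was by far the highest of the 10 and the 15th of the tested protein-coding genes by mean FPKM. The control libraries held 1509.7, 1455.1 and 1496.3 FPKM, and the UVB libraries held 1094, 1055.7 and 1094.2 FPKM. The gap between the groups was wide against the spread within them, with means of 1487 ± 28.4 and 1081 ± 22.2 FPKM (SD, n = 3 each), a change of -27.3%. On the log2 scale the change was -0.46 ± 0.0364 (SE, limma, Benjamini-Hochberg adjusted p = 0.000503). Under quantile normalization it was 0.02 (limma adjusted p = 0.637). That scaling gives each rank the same value in every library, and GAPDH held rank 19 or 20 among tested genes in all 6. The call was kept under the other 15 alternatives. GAPDH has 62 listed pseudogenes, 29 with reads, whose reads came to 0.159% to 0.217% of GAPDH's, and the highest, GAPDHP1, had a mean of 5.59 FPKM.

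PGK1 encodes phosphoglycerate kinase, the first ATP-forming step (X chromosome, 77910739 to 78129296, plus strand, ENSG00000102144). Its FPKM values were 70.6, 65.1 and 73.0 in the controls against 61.6, 65.2 and 62.1 after UVB. The lowest control lay within the UVB range. The log2 fold change of -0.14 ± 0.0539 did not pass (SE, limma adjusted p = 0.101), though it did without control replicate 2, the lowest control (-0.19, limma adjusted p = 0.0429).

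PGAM1 encodes phosphoglycerate mutase, which moves the phosphate between carbons of glycerate (chromosome 10, 97426160 to 97433441, plus strand, ENSG00000171314). It was measured at 262, 253 and 249 FPKM in the controls and at 253, 248 and 246 FPKM after UVB. The groups overlapped within a narrow range. On the log2 scale the difference was -0.03 ± 0.0364 (SE, limma adjusted p = 0.574), and 0.02 under quantile normalization.

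ENO1 encodes alpha-enolase, which forms phosphoenolpyruvate (chromosome 1, 8861000 to 8879250, minus strand, ENSG00000074800). The controls held 331, 317 and 315 FPKM, and the UVB libraries held 266, 264 and 267 FPKM. The UVB libraries lay close together and below every control, at means of 321 ± 8.48 and 266 ± 1.62 FPKM (SD, n = 3 each), a change of -17.2%. This was a log2 fold change of -0.27 ± 0.0353 (SE, limma, Benjamini-Hochberg adjusted p = 0.00286), and the call was kept under all 16 alternatives. Its 4 listed pseudogenes had 0.817% to 1.05% as many reads as ENO1, led by ENO1P1 at a mean of 10.2 FPKM.

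PKM encodes the muscle-type pyruvate kinase, the last ATP-forming step (chromosome 15, 72199029 to 72231822, minus strand, ENSG00000067225). Its FPKM values were 243, 216 and 229.5 in the controls against 166, 200.1 and 199.6 after UVB. UVB replicate 1 was lowest, and all 3 UVB libraries were below all 3 controls. The log2 fold change of -0.28 ± 0.0854 missed the threshold (SE, limma adjusted p = 0.0513). It passed under 4 alternatives, a filter at a mean of 1 FPKM (limma adjusted p = 0.0478), TMM scaling (limma adjusted p = 0.0383), edgeR (adjusted p = 0.0329) and DESeq2 (adjusted p = 0.0121). Gene-level values do not separate the PKM1 and PKM2 splice forms.

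LDHA encodes the M subunit of lactate dehydrogenase, the form that favours lactate (chromosome 11, 18394388 to 18408425, plus strand, ENSG00000134333). The controls held 148, 167 and 183 FPKM, and the UVB libraries held 121, 142 and 103 FPKM. The highest UVB library came close to the lowest control, although the groups did not overlap. LDHA had the widest relative spread of the 10 in both groups, with a coefficient of variation of 10.7% in controls and 16.2% after UVB. LDHA changed by -0.45 ± 0.132 on the log2 scale (SE, limma, Benjamini-Hochberg adjusted p = 0.0470). The call was lost under 8 of the 16 alternatives, among them leaving out control replicate 1, 2 or 3 or UVB replicate 1 or 3, where the log2 fold change ran from -0.53 to -0.33 and the limma adjusted p from 0.0505 to 0.125.

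LDHB encodes the H subunit, the form that favours pyruvate (chromosome 12, 21635342 to 21757857, minus strand, ENSG00000111716). It stood at 72.9, 69.1 and 72.8 FPKM in the controls and at 60.9, 61.3 and 61.0 FPKM after UVB. The UVB libraries were almost equal, with a coefficient of variation of 0.332%, and all lay below the controls. The means were 71.6 ± 2.19 and 61.1 ± 0.203 FPKM (SD, n = 3 each), and the log2 fold change was -0.23 ± 0.0384 (SE, limma, Benjamini-Hochberg adjusted p = 0.00753), kept under all 16 alternatives. LDHB shares 33.4% of its exon bases with AC010197.2, a same-strand gene listed at 0, so its level is uncertain.

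**Figure D2:**
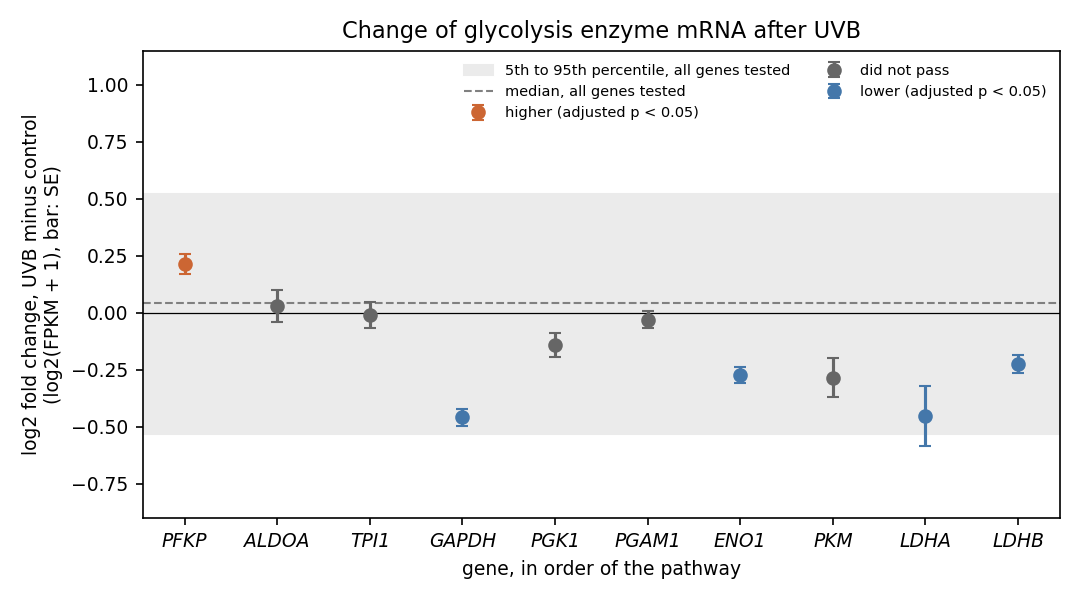
Log2 fold change of each enzyme on log2(FPKM + 1), UVB minus control, with bars of 1 SE, coloured by call. The band spans the 5th to 95th percentile of all genes tested (-0.53 to 0.52) and the dashed line marks their median (0.04). All 10 points lie within the band, from GAPDH at -0.46 to PFKP at 0.21.

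With tests on reads recovered from the FPKM values, 1 enzyme was higher and 5 were lower, PKM being the fifth. In edgeR, 10.7% of 19685 genes were called higher and 10.4% lower, and in DESeq2 11.1% of 22682 were called higher and 10.4% lower. By number, edgeR called 2100 higher and 2050 lower, so 50.6% of its calls were higher, against 60.7% with limma (2530 higher and 1637 lower). In the authors' deposited table, GAPDH (-0.46, adjusted p = 1.94e-05) and LDHA (-0.45, adjusted p = 0.0238) were the only enzymes of the 10 under 0.05. The share of all genes under 0.05 in that table was not counted, so this count has no background beside it. ENO1 had an adjusted p of 0.0625 in the authors' deposited table, LDHB 0.330 and PFKP 0.348.

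Per kilobase of exon, the order in the controls was GAPDH, ENO1, TPI1, PGAM1, PKM, ALDOA, LDHA, LDHB, PGK1 and PFKP. Neighbours in that order overlapped for ALDOA and LDHA and for LDHB and PGK1. After UVB the order was GAPDH, TPI1, ENO1, PGAM1, PKM, ALDOA, LDHA, PFKP, PGK1 and LDHB, with overlap between TPI1 and ENO1 and between PKM and ALDOA. By these lengths PFKP was lowest of the 10 in the controls and stood above PGK1 and LDHB in the UVB libraries. These lengths merge all annotated exons of a gene, such as 8571 bases for PKM and 2981 for GAPDH. With the spliced length of 1 principal transcript per gene, chosen after the data were seen, PKM ranked 2nd in place of 5th in the controls and PGAM1 ranked 7th in place of 4th. PFKP was then already above PGK1 in the controls, at means of 107.9 against 78.5 FPKM by that length, and PGK1 was lowest. GAPDH was first with either length.

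Reads on the 10 enzymes made up 1.24%, 1.18% and 1.22% of assigned reads in the controls against 0.987%, 1.01% and 0.994% after UVB. The UVB libraries were all lower, at 0.997% ± 0.0120 against 1.21% ± 0.0281 (SD, n = 3 each). The summed FPKM of the 9 enzymes other than GAPDH was 1668, 1589 and 1627 in the controls against 1476, 1498 and 1457 after UVB, so the sum was lower without GAPDH as well. GAPDH held 47.5%, 47.8% and 47.9% of the summed FPKM of the 10 in the controls against 42.6%, 41.3% and 42.9% after UVB. It therefore made up a smaller part of the sum in each UVB library.

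The ratio of LDHA to LDHB, in FPKM by merged exon lengths, was 2.02, 2.42 and 2.52 in the controls against 1.98, 2.31 and 1.68 after UVB. Its size depends on those lengths. By the principal transcripts, LDHA was at means of 426.6 and 312.8 and LDHB at 138.9 and 118.5 FPKM in controls and UVB. The groups overlapped in the ratio of LDHA to LDHB by merged exon lengths, although each subunit alone did not overlap. The summed FPKM of all lactate dehydrogenase genes was 221, 236 and 256 in the controls against 182, 203 and 164 after UVB, without overlap.

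Other genes of the same steps were followed to see which isoenzyme carried each step. PFKP made up 65.8% to 67.8% of phosphofructokinase FPKM in the 6 libraries, the rest being PFKL and PFKM. The step as a whole came to 91.9, 91.8 and 85.0 FPKM in the controls against 104, 103 and 100.2 FPKM after UVB, every UVB library being higher. PFKM, the muscle type, rose from 11.5 ± 0.321 to 14.1 ± 0.920 FPKM (SD, n = 3 each; log2 fold change 0.27, limma adjusted p = 0.0185), and PFKL, the liver type, was at 18.8 and 19.4 FPKM and was not called. The PFKM call did not survive leaving out control replicate 1 or 3, or UVB replicate 1 or 2 (0.23 to 0.28, limma adjusted p = 0.0501 to 0.0592).

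ALDOA made up 93.5% to 96.6% of aldolase FPKM. ALDOC, the brain type, was measured at 7.04, 6.77 and 6.73 FPKM in the controls and at 12.2, 11.9 and 12.5 FPKM after UVB. All 3 UVB libraries were far above the controls, while ALDOA overlapped between the groups. The log2 fold change of ALDOC was 0.75 ± 0.0475 (SE, limma, Benjamini-Hochberg adjusted p = 0.000242), kept under all 16 alternatives. Its share of aldolase FPKM was 3.38%, 3.78% and 3.64% in the controls against 6.11%, 5.68% and 6.55% after UVB. ALDOC thus stayed the minor form.

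ENO1 held 96.5% to 98.8% of enolase FPKM. ENO2, the neuronal form, was at 2.87, 2.56 and 1.54 FPKM in the controls and at 5.96, 3.18 and 4.86 FPKM after UVB. All UVB libraries were above all controls, but the log2 fold change missed the threshold (limma adjusted p = 0.0535) and passed it without UVB replicate 2 (0.97, limma adjusted p = 0.0285) and in DESeq2 (0.98, adjusted p = 0.00122). ENO3, the muscle form, was at 2.52 ± 0.563 and 3.72 ± 0.477 FPKM (SD, n = 3 each; limma adjusted p = 0.0562), and passed without control replicate 2 (0.56, limma adjusted p = 0.0194) and in DESeq2 (0.53, adjusted p = 0.0169). PGAM1 made up at least 98.97% and PKM at least 99.97% of their steps, and GAPDHS, PGK2, PGAM2 and LDHC were listed at 0 in all 6 libraries.

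Of 24 further glycolysis genes, 12 were tested, of which 3 rose (ALDOC, HK2 and PFKM), 1 fell (BPGM) and 8 did not pass. Their median log2 fold change was 0.20. Over all genes tested, 17.0% were higher and 11.0% lower. BPGM, which makes 2,3-bisphosphoglycerate, fell from 6.31 ± 0.321 to 4.78 ± 0.294 FPKM (SD, n = 3 each; log2 fold change -0.34, limma adjusted p = 0.0118). HK2, an inducible hexokinase, rose from 4.81 ± 0.155 to 6.06 ± 0.463 FPKM (log2 fold change 0.28, limma adjusted p = 0.0252), and HK1, the main hexokinase here, was at 28.6 and 25.1 FPKM and was not called. The HK2 call was lost without any of the controls or UVB replicate 2 or 3 (0.25 to 0.30, limma adjusted p = 0.0543 to 0.0841). Without control replicate 1 or 3, the count of higher genes in this list was 1.

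GAPDH and PGK1 are in common use to normalise other measurements, so 20 reference genes were set beside them. Of these, 4 fell (PPIA, GAPDH, TUBB and ACTB), 3 rose (SDHA, TFRC and ALAS1) and 13 did not pass, with a median log2 fold change of 0.08. The shares over all genes tested were 11.0% lower and 17.0% higher. PPIA, cyclophilin A, fell from 423 ± 11.1 to 282 ± 5.62 FPKM, and TUBB, a beta-tubulin, from 675 ± 9.87 to 510.3 ± 10.5 FPKM (SD, n = 3 each; limma adjusted p = 0.000248 and 0.000670). ACTB, beta-actin, stood at means of 388 and 302 FPKM (limma adjusted p = 0.0382), and its call was lost without any of the controls or UVB replicate 1 or 3 (-0.39 to -0.29, limma adjusted p = 0.0758 to 0.111). Without UVB replicate 2 or 3, 1 reference gene was higher. HPRT1, a purine salvage enzyme, YWHAZ, a 14-3-3 protein, and POLR2A, a subunit of RNA polymerase II, did not pass and had means of 64.2 and 71.0, 72.0 and 72.4, and 44.9 and 47.6 FPKM in controls and UVB, chosen after their values were seen.

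The ratio of GAPDH to ACTB was 3.77, 3.75 and 3.99 in the controls against 3.84, 2.996 and 4.06 after UVB, in FPKM. These groups overlapped. The ratio of GAPDH to PGK1 was 21.4, 22.3 and 20.5 in the controls against 17.7, 16.2 and 17.6 after UVB, and that of GAPDH to TPI1 was 5.39, 5.41 and 5.55 against 3.78, 4.18 and 4.01. Both of these ratios were lower in every UVB library. Among the 50 tested genes with the highest mean FPKM, GAPDH included, 27 fell, 8 rose and the median log2 fold change was -0.22.

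**Figure D3:**
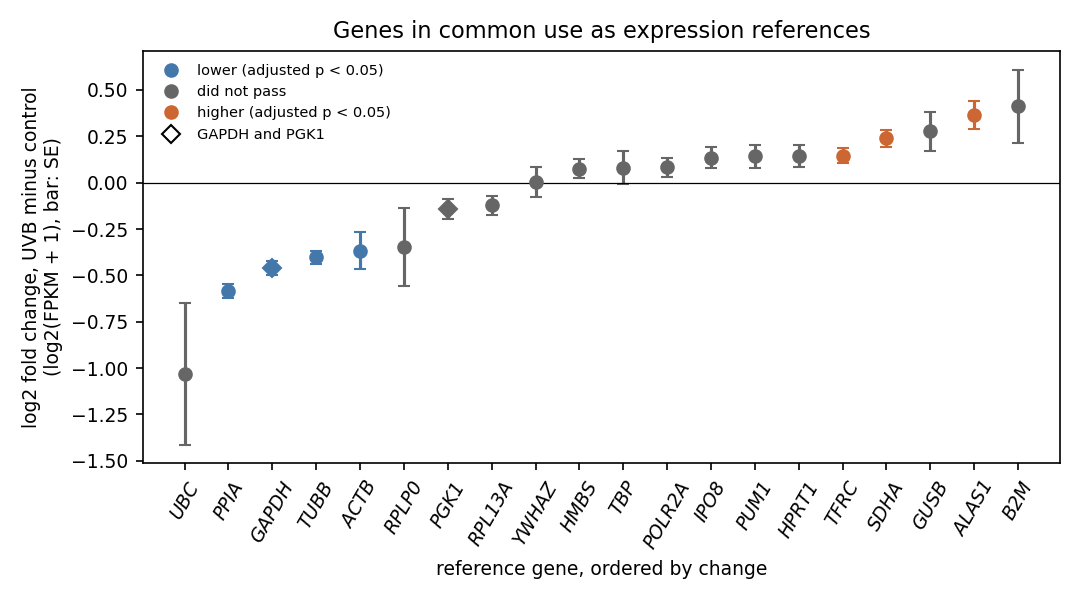
Log2 fold change of 20 reference genes on log2(FPKM + 1), UVB minus control, ordered by change, with bars of 1 SE and colours for the call. Diamonds mark GAPDH (-0.46, called lower) and PGK1 (-0.14, not called).

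Genes next to glycolysis were followed in lists chosen by function. Over all genes tested 17.0% were called higher and 11.0% lower, and the counts of every list below stand beside these shares. Among 4 tested regulators of fructose 2,6-bisphosphate, which controls phosphofructokinase, PFKFB2, a bifunctional enzyme that makes and removes it, rose from 5.71 to 6.87 FPKM (log2 fold change 0.23, limma adjusted p = 0.0286), none fell and the median was 0.14. That call was lost without any of the controls or UVB replicate 2 or 3 (0.21 to 0.25, limma adjusted p = 0.0562 to 0.0948). Among 10 tested carriers of glucose and lactate, 2 rose and 1 fell, with a median of -0.10. SLC2A6, a lysosomal hexose carrier, rose from 5.75 ± 0.864 to 9.81 ± 0.610 FPKM, and SLC16A1, the lactate and pyruvate carrier MCT1, from 16.6 ± 0.988 to 21.5 ± 0.753 FPKM (SD, n = 3 each; limma adjusted p = 0.00499 and 0.00623). SLC2A13, a myo-inositol carrier, was at 0.843 and 0.343 FPKM (limma adjusted p = 0.0189), lost on leaving out control replicate 2 or 3 or any UVB library (-0.47 to -0.41, limma adjusted p = 0.0505 to 0.0634). SLC2A1, the glucose carrier GLUT1, was at 16.5 and 13.3 FPKM and was not called (limma adjusted p = 0.401).

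For the entry of pyruvate into mitochondria, 3 of 14 tested genes rose and 1 fell, with a median of 0.07. PC, pyruvate carboxylase, fell from 4.19 ± 0.234 to 2.01 ± 0.116 FPKM (SD, n = 3 each; log2 fold change -0.79, limma adjusted p = 0.000635). MPC2, a subunit of the mitochondrial pyruvate carrier, rose from 14.8 to 18.3 FPKM (limma adjusted p = 0.00620), and PDK2, a kinase that restrains pyruvate dehydrogenase, from 2.26 to 3.22 FPKM (limma adjusted p = 0.0148). The PDK2 call was lost without UVB replicate 3 (0.35, limma adjusted p = 0.0541).

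In gluconeogenesis, which reverses the pathway, 3 of 4 tested genes rose and none fell, with a median of 0.58. The share called higher over all genes was 17.0%, but a count among 4 genes is small. PCK2, the mitochondrial phosphoenolpyruvate carboxykinase, rose from 16.4 ± 0.716 to 25.6 ± 2.69 FPKM (SD, n = 3 each; log2 fold change 0.61, limma adjusted p = 0.00292). FBP1, fructose bisphosphatase, was at 0.511 and 1.48 FPKM, and G6PC3, a glucose-6-phosphatase, at 8.95 and 13.4 FPKM (limma adjusted p = 0.0198 and 0.0183). Both calls were lost without UVB replicate 1 or 2, and that of G6PC3 also without control replicate 1 (FBP1 0.64 to 0.73, limma adjusted p = 0.0587 to 0.0635; G6PC3 0.50 to 0.56, limma adjusted p = 0.0506 to 0.0619). Without either of those UVB libraries, 1 gene of the list was higher.

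In the branch to serine and glycerol, which leaves glycolysis before PGAM1, 4 of 7 tested genes rose and none fell, with a median of 0.25. PSAT1, the aminotransferase of serine synthesis, was at 67.9, 72.7 and 78.0 FPKM in the controls and at 153, 152 and 150.2 FPKM after UVB. Each UVB library lay far above the controls, and the log2 fold change was 1.05 ± 0.0555 (SE, limma, Benjamini-Hochberg adjusted p = 0.000143). PSPH, the phosphatase of the same route, rose by 0.45 on the log2 scale, and SHMT2, which turns serine into glycine in mitochondria, by 0.37 (limma adjusted p = 0.000732 and 0.00255).

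In the pentose phosphate pathway, 1 of 8 tested genes rose and 2 fell, with a median of -0.10. TKT, transketolase, fell from 87.9 ± 0.988 to 59.7 ± 1.39 FPKM (SD, n = 3 each; log2 fold change -0.55, limma adjusted p = 0.000269), and PGLS, a lactonase, rose from 21.6 to 30.1 FPKM (limma adjusted p = 0.00607). TALDO1, transaldolase, was at 93.8 and 83.0 FPKM (limma adjusted p = 0.0449), a call lost without any 1 of the 6 libraries (-0.20 to -0.13, limma adjusted p = 0.0576 to 0.124). In the citrate cycle, 1 of 16 rose and 2 fell, with a median of -0.03. SUCLG2, a subunit of succinyl-CoA ligase, fell from 19.9 ± 1.03 to 7.45 ± 0.398 FPKM (SD, n = 3 each; log2 fold change -1.31, limma adjusted p = 0.000102), and SDHA, a subunit of succinate dehydrogenase, rose from 32.7 to 38.8 FPKM (limma adjusted p = 0.00994). SDHD, another of its subunits, was at 44.0 and 38.1 FPKM (limma adjusted p = 0.0247), lost without any of the controls or UVB replicate 2 or 3 (-0.22 to -0.16, limma adjusted p = 0.0555 to 0.0721). Without control replicate 2, 2 genes of the citrate cycle were higher.

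**Figure D4:**
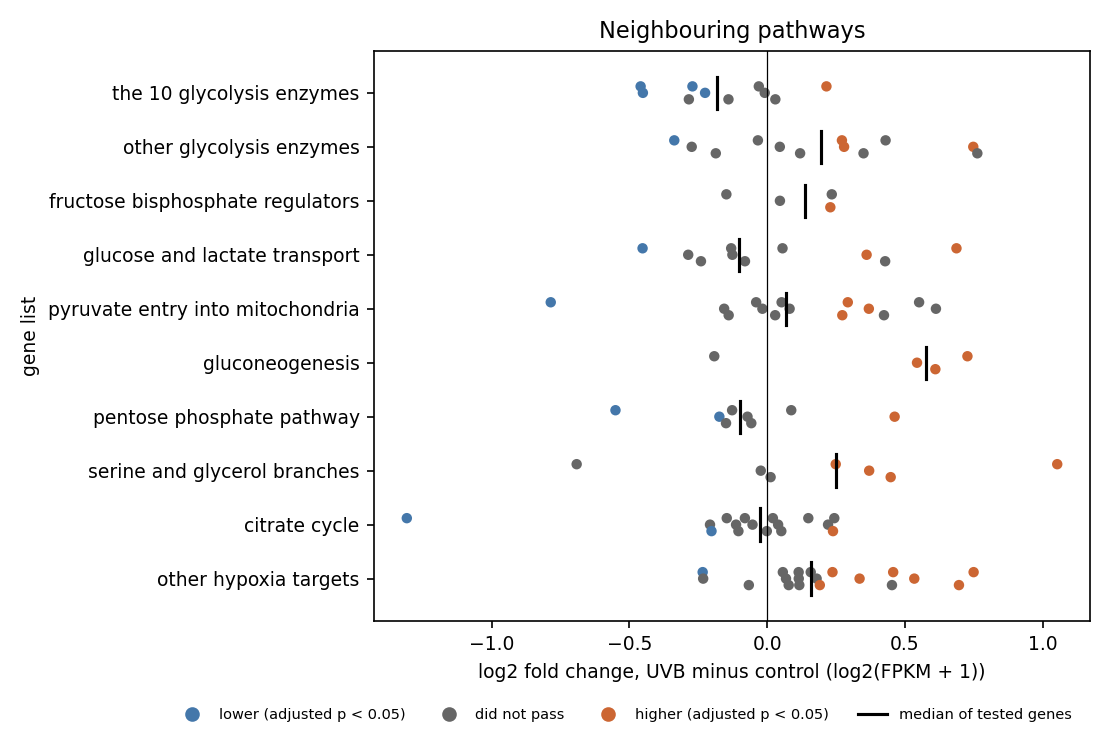
Log2 fold change on log2(FPKM + 1), UVB minus control, of each tested gene (points) in the 10 glycolysis enzymes and 9 neighbouring lists, coloured by call, with a bar at each list's median. The median of the 10 enzymes is -0.18, and those of the other lists run from -0.10 to 0.58.

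Of 13 tested regulators of glycolysis genes, 4 rose, none fell and the median was 0.14. Over all genes tested, 17.0% rose and 11.0% fell. HIF1A, the oxygen-regulated subunit of hypoxia-inducible factor 1, was at 32.5 and 31.9 FPKM and was not called (limma adjusted p = 0.808; above 0 without control replicate 2, at 0.01, or UVB replicate 1, at 0.02). EPAS1, its paralogue in factor 2, rose from 14.7 ± 0.682 to 21.2 ± 0.128 FPKM (SD, n = 3 each; limma adjusted p = 0.000912). MXD1, which competes with MYC for its partner MAX, rose from 1.96 to 3.85 FPKM (limma adjusted p = 0.00197). MYC itself was at 1.73, 1.60 and 1.83 FPKM in the controls and at 1.64, 11.9 and 1.58 FPKM after UVB. It was not called (limma adjusted p = 0.435), and its high value was in UVB replicate 2 alone. Of 19 other tested hypoxia targets, 7 rose and 1 fell, with a median of 0.16. VEGFA, a vascular growth factor, rose from 3.42 to 6.45 FPKM, P4HA1, a collagen prolyl hydroxylase, from 12.4 to 20.7 FPKM, and BNIP3, a mitophagy receptor, from 1.16 to 2.13 FPKM (limma adjusted p = 0.00112, 0.000772 and 0.00380). These 3 were named for having the largest called changes of the list, so they do not stand for it. DDIT4, a stress-response gene, was called lower (-0.23, limma adjusted p = 0.0489), and 11 did not pass. No gene of the list was called lower with no filter or with the same FPKM sum in every library. Many of the glycolysis enzymes are known hypoxia targets too. Among the enzymes, GAPDH, ENO1, LDHA and LDHB fell, PFKP rose, and ALDOA, TPI1, PGK1, PGAM1 and PKM were not called. Whether the enzymes and this list share a cause was not tested.

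The libraries held 66272443 to 88484020 assigned reads, and the 10 enzymes were measured with 13179 to 362642 reads each, counting each recovered unit as a read. Pearson's r across genes was 0.991 to 0.993 between libraries of a group and 0.986 to 0.988 between groups, a description since genes are not independent. All 12 keratinocyte markers were tested, of which 3 rose and 5 fell, and their summed FPKM was 926 to 1126 in the controls and 704 to 783 after UVB. Among the markers that fell were KRT15 (log2 fold change -1.43, limma adjusted p = 4.82e-05), KRT5 (-1.24, limma adjusted p = 0.0136) and SFN (-0.51, limma adjusted p = 0.00120). Those that rose were COL17A1 (0.45, limma adjusted p = 0.00368), LAMB3 (0.42, limma adjusted p = 0.00822) and KRT14 (0.43, limma adjusted p = 0.0163). KRT14 was low, at means of 1.02 and 1.73 FPKM. With no filter on low values, 2 of these markers were higher and 4 lower. Of all genes tested, 17.0% were higher and 11.0% lower. Summed markers of other cells were low but higher after UVB, at 4.40 to 4.79 against 7.56 to 8.09 FPKM for melanocytes (2 of 7 tested, MITF higher, TYR at 0) and 0.789 to 1.06 against 1.79 to 1.97 FPKM for fibroblasts (1 of 8 tested, COL1A1 higher). They were 10.7 to 12.1 against 18.6 to 26.2 FPKM for leukocytes (2 of 10 tested, CD3E, CD3D, CD8A and LYZ among those at 0) and 4.26 to 5.21 against 5.91 to 8.96 FPKM for endothelium (1 of 5 tested, KDR at 0). Of the tested leukocyte markers, CD68 rose from 5.16 to 18.2 FPKM, while CD14 was at 6.36 and 4.93 FPKM and did not pass (limma adjusted p = 0.0993). CDH5, the tested endothelial marker, did not pass (limma adjusted p = 0.0559) but did without UVB replicate 3 (0.59, limma adjusted p = 0.0439), with the same FPKM sum in every library (limma adjusted p = 0.0471) and in DESeq2 (adjusted p = 0.00757). The part of these markers in the changes of the enzymes was not tested.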

How the data were processed

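RNA-seq of 3 control and 3 UVB libraries of HaCaT cells was used, grouped by sample title. Per the submitters' processing notes, the tools were HISAT2 2.0.5, StringTie and DESeq, on build hg38 (GRCh38). How reads were counted, whether strand was used and which annotation served were not given in the sources used here, so where genes overlap on either strand their reads cannot be separated. The authors deposited FPKM values for genes and repeat copies, and read counts for 74 repeat copies. With those counts, 100% of non-zero FPKM values became whole numbers within 0.01, taken as reads, which is not known. The deposited tables also hold the authors' mean normalised counts (a signal averaged over libraries), log2 fold changes with standard errors, test scores and p-values. All 58735 gene identifiers are in GENCODE 29, and 58643 lengths equal its merged exons.

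The test was limma 3.58.1 in R 4.3.3 (trended eBayes) on log2(FPKM + 1), for genes whose mean reached 0.5 FPKM, with Benjamini-Hochberg adjustment over all of them. Fold changes are on that scale and understate changes of low genes. FPKM are not counts, so edgeR 4.0.16 (quasi-likelihood, TMM) and DESeq2 1.42.0 on recovered reads were alternatives. The others were a pseudocount of 0.1, no filter, a filter at 1 FPKM, 3 scalings, a replicate block, leaving out each library and adding pseudogene reads, 16 in all. Exact permutation tests of single values used scipy 1.17.1.

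The 10 genes and the 16 lists were chosen with earlier results of these data known. From each other list the text names up to 3 called genes with the largest change or, with none called, up to 2 by level, and isoenzymes of the same steps. Other genes were chosen after their values were seen. Some genes of the lists are not reported here by name. In 5 draws of simulated data with 200 changed genes among 14935, limma recovered 59.6% of 2-fold and 91.9% of 4-fold changes, and 6.00% of its calls were unchanged genes. All changes of the 10 enzymes were smaller than 2-fold, and 4167 genes were called in the data. These rates thus do not describe the calls of the enzymes.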

Additional observations from a re-analysis of the deposited data

How the results depend on the processing

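Under the 16 alternatives, the calls of ENO1 and LDHB were kept, with log2 fold changes from -0.31 to -0.18 and from -0.27 to -0.20. Under quantile normalization 2 enzymes were lower, beside 1856 lower and 1987 higher of all 14921 genes, and GAPDH (0.019), PGAM1 (0.018), TPI1 (0.076) and PFKL (-0.035) changed sign. TPI1 also changed sign with the same FPKM sum in every library (0.011), and ALDOA with TMM scaling (-0.0076), edgeR (-0.010) and DESeq2 (-0.0045). The cause was not tested, apart from the equal ranks of GAPDH. Leaving out 1 library gave 0 to 1 higher enzymes, and 1629 (without UVB replicate 3) to 2081 higher genes over all tested. These omissions moved ALDOA from -0.016 to 0.096, TPI1 from -0.056 to 0.043, PFKL from -0.0075 to 0.076 and HIF1A from -0.088 to 0.018, across 0 in each case. Same-numbered libraries of the groups were not paired by the labels. Their deviations from the group means correlated by 0.048, 0.022 and 0.030, and those of unlike numbers by -0.033 to 0.0039. Each library thus correlated best with its own number, though weakly. The main test did not use the number, and whether same-numbered libraries shared a batch is not known. With the replicate block, 1789 genes were higher and 1240 lower, and 1 enzyme was higher and 3 were lower, the call of LDHA being lost (limma adjusted p = 0.0841). The block also took the calls of HK2, PFKFB2, FBP1, TALDO1, SDHD and ACTB (limma adjusted p = 0.0514 to 0.0838), and SLC2A1 was called lower with it (-0.29, limma adjusted p = 0.0275).

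The calls of GAPDH, LDHA, PKM, PGK1 and PFKP changed when 1 library or 1 setting was changed, as given beside each gene. The lowest read number of the 10 enzymes in a library was 13179. Gene-level values do not show splice forms, protein or enzyme activity.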
